A study of Mus musculus with 24 samples.

Results

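Transfer RNA fragments (tRFs) of 30 nt were followed across 24 mouse liver small RNA libraries. Fragments were chosen by 2 measured values, a length of 30 nt or more and a count of 20 or more summed over all libraries, and fragments whose codes mark 3 histidine tRNA starts were left out. These limits kept 87 of 8456 tRFs. The tRFs analysed here were 16 to 30 nt long, so all 87 are exactly 30 nt. The products of a single cut in the anticodon loop are longer than this and would not be among them, and whether a longer molecule lay behind a 30-nt entry cannot be told apart. Length and total count chose the fragments, so both are description only. The 87 held 57009 of 833071 tRF counts (6.84%) and 95.5% of the 59711 counts on all 543 fragments of 30 nt. Just inside the count limit lay tRF-30-V470VR3196L8 and tRF-30-W3FJI0E7UM8K, each with 20 counts, and just outside it tRF-30-81PV6RRNLNK8 with 19. Below the length limit, the 252 fragments of 29 nt held 13195 counts, most of them on tRF-29-86J8WPMN1EJ3 (8065 counts).

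The livers came from C57Bl/6J mice in 3 groups of 8 libraries. AM132 mice were made obese by 11 weeks of high fat diet and received 3.3 mg/kg of a locked nucleic acid 16-mer complementary to miR-132 by intravenous injection on 3 days in a row, with tissue taken 7 days later. AM608 mice had the same diet, dose and times with a 15-mer complementary to miR-608, a miRNA of primates that was the control target. RCD mice ate regular chow, and the labels name no injection for them. AM132 against AM608 compares the oligonucleotides in obese liver, while AM608 against RCD and AM132 against RCD differ in diet and injection together, which cannot be told apart. No obese group without an oligonucleotide is among these samples. Sex and age are not in the labels, nor is it stated that each library is 1 mouse, so p-values measure the spread between these libraries.

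tRNAs carry amino acids to the ribosome and fold into a cloverleaf whose anticodon loop reads the codon. Ribonucleases such as angiogenin cut this loop under stress and leave a 5′ and a 3′ piece. Shorter tRFs arise from cuts in the other loops, and 5′ fragments of glycine and glutamate tRNAs are among the most studied. The library kit joins its adapters to a 5′ phosphate and a 3′ hydroxyl, so the 5′ products of angiogenin, which end in a cyclic phosphate, are caught poorly.

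The fragments with most counts came from the 5′ end of lysine tRNA and are shown because they carry most of the signal. Sequences were read from the fragments' own names, which encode them, and positions count from 1 at the first base of the mature tRNA. Capitals mark the bases at which these 3 differ.
tRF-30-PSQP4PW3FJI0: gcccggCtagctcagtcggtagagcatGAg
tRF-30-PSQP4PW3FJIK: gcccggCtagctcagtcggtagagcatGGg
tRF-30-PS5P4PW3FJHP: gcccggAtagctcagtcggtagagcatCAg
The first and second are tRNA-Lys-CTT copies that differ by A29G, and the third is tRNA-Lys-TTT, which differs from the first by C7A and G28C. Each ends at base 30, 3 bases before the anticodon, which begins at base 34. RefSeq lists 24 Lys-CTT genes on 12 chromosomes and 2 Lys-TTT genes on chromosome 13 in GRCm38.p6, and the files do not say which gene a read came from.

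Aspartate tRNA (tRNA-Asp-GTC, 16 RefSeq genes on 6 chromosomes) gave both ends, and its fragments are shown because they lie on either side of the anticodon. Capitals mark a base that differs between copies, G20T at the 5′ end and G56A on the 3′ side.
Asp 5′ fragment, major copy: tcctcgttagtatagtggtGagtatccccg
Asp 5′ fragment, minor copy: tcctcgttagtatagtggtTagtatccccg
tRF-30-8HM2OSRNLNKS: tcacgcgggagaccggggttcGattccccg
tRF-30-L85DMKYUYRLH: cgcgggagaccggggttcGattccccgacg
tRF-30-QKF1R3WE8RO8: gcgggagaccggggttcGattccccgacgg
tRF-30-QKF1R38E8RO8: gcgggagaccggggttcAattccccgacgg
tRF-30-M2OSRNLNKSEK: cgggagaccggggttcGattccccgacggg
Asp fragment from base 42: ggagaccggggttcGattccccgacgggga
The pair at the top starts at base 1, with 2813 counts on the major and 426 on the minor copy. The others form a ladder that starts at bases 35, 38, 39, 40 and 42, within or after the anticodon, and stops short of the 3′ CCA tail.

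Glutamine, glutamate and glycine tRNAs gave the other fragments on which the results turn. The first 2 are 5′ fragments of tRNA-Gln-CTG and tRNA-Gln-TTG (capitals mark bases 3 and 4, with T4C between them). The third is the 3′ side of tRNA-Glu-TTC from base 41. In the last 3 the capitals are the anticodon, which these fragments span.
tRF-30-R9J89O9NF5W8: ggTTccatggtgtaatggttagcactctgg
tRF-30-RRJ89O9NF5W8: ggTCccatggtgtaatggttagcactctgg
tRF-30-1HPSR9O9337K: aggcggcccgggttcgactcccggtgtggg
tRF-30-9LON4VN1EH6K: tggtagaattctcgcctGCCacgcgggagg
tRF-30-U47P299DWUH6: taatggttagcactctggactCTGaatcca
tRF-30-U47P299DZUH6: taatggttagcactctggactTTGaatcca

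Of the 87 fragments, 85 lay within parent tRNAs assembled from overlapping deposited tRFs, each within 1 of the 20 isoacceptors assembled. No set of nuclear tRNA gene sequences was searched, so a fragment may also occur in an isoacceptor that was not assembled. The other 2 were assigned to valine tRNA by their likeness to a Val-CAC fragment, and their anticodon is not known. None of the 87 matched any of 22 mitochondrial tRNAs. Lysine tRNAs gave 9 fragments with 75.1% of the 30-nt counts, and aspartate tRNA 16 with 13.6%. Glutamate tRNAs gave the most fragments, 26, yet only 4.73% of the counts. Glutamine gave 12 fragments (3.16%) and glycine 8 (1.58%). The other 16 came from histidine, valine, initiator methionine, leucine, serine, proline, tyrosine, threonine and isoleucine tRNAs. Both histidine fragments, tRF-30-MUWLV47PU9XW and tRF-30-7EMQ18Y3E7QN, start at bases 3 and 4, and their codes are not among those left out. By position, the 25 fragments starting at base 3 or before held 85.2% of the counts. The 29 that start in or after the anticodon held 10.3%, and the 33 in between held 4.43%. A single pair, tRF-30-PSQP4PW3FJI0 (25574 counts) and tRF-30-PSQP4PW3FJIK (14673), made up 70.6% of all counts on the 87, and 20 fragments were counted in all 24 libraries.

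The same start was counted at shorter lengths to very different extents. Forms too short to reach a base that differs between copies belong to all copies, so shares are given over all counts from a start. Of 50188 counts from the Lys-CTT start, tRF-30-PSQP4PW3FJI0 held 51.0%, tRF-30-PSQP4PW3FJIK 29.2% and the shared 16-nt tRF-16-PSQP4PE 5795 counts. For the Lys-TTT fragment tRF-30-PS5P4PW3FJHP the 30-nt form was 17.6% of its start, and the most abundant form was tRF-19-PS5P4PJ4 with 4680 counts. The major Asp 5′ fragment was 25.1% of the start it shares with the minor copy (3.81%), behind a 23-nt form with 5809 counts. On the 3′ side of tRNA-Asp, in contrast, the 30-nt copies together were 91.5% of the start of tRF-30-QKF1R3WE8RO8 and 82.3% of that of tRF-30-M2OSRNLNKSEK. The Gly-GCC fragment tRF-30-9LON4VN1EH6K was 13.8% of its start, most of which was tRF-23-9LON4VN18 (2606 counts), but 1978 of those were in AM132 8, and without that library the 30-nt form was 35.1%. For tRF-30-R9J89O9NF5W8 (Gln), no shorter fragment with the same first 15 bases was counted, whereas tRF-30-RRJ89O9NF5W8 (Gln-TTG) had a 29-nt form with 42 counts. The rule assigning reads to tRFs is not given, so a missing length may not mean that the fragment was absent. The Lys-CTT and Lys-TTT starts thus differed in which length held most counts.

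tRF counts per library ranged from 20580 to 46567, except for AM132 8 with 80578, and miRNA counts from 5689143 to 8734721. Library AM132 8 stood apart before any test: 48.4% of its tRF counts lay on the 295 tRFs abundant enough to be tested, against 86.9 to 90.4% elsewhere. RCD 3 stood apart as well. The summed miRNA markers of hepatocytes, which are high in every library of this liver set (351314 to 542928 CPM of miRNA counts), were lowest in RCD 3 and highest in AM132 8. In RCD 3 the summed markers of leukocytes (8925 CPM, 4 of 6 listed miRNAs found, against at most 7922 elsewhere), mesenchymal cells (33809, 5 of 5 found, against at most 18894), neurons (1551, 4 of 4 found, against at most 673), muscle (442, 3 of 3 found, against at most 147.5), pancreas (19.9, 4 of 4 found, against at most 6.68), erythroid cells (2365, 3 of 4 found, against at most 1300.2) and endothelium (57674, 2 of 2 found, against at most 54154) were the highest of all 24. Markers of bile duct cells went the other way there (567 CPM, 5 of 5 found, 23rd of 24 libraries). No marker found in the table was at 0 in all libraries, and the part of other cells in the results below was not tested. Results that rest on either library are given with and without it.

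As a share of each library's tRF counts, the summed 30-nt fragments ran from 2.60 to 10.4% in AM132 (median 7.44%, mean 6.94% ± 2.72 SD, n = 8). In AM608 they ran from 3.81 to 11.7% (median 5.38%, mean 6.16% ± 2.55 SD, n = 8), and in RCD from 5.18 to 22.4% (median 6.40%, mean 8.73% ± 5.76 SD, n = 8). The 3 groups overlapped, and their means differed by less than the SD of the RCD libraries. The lowest AM132 value was AM132 8, and without it the AM132 mean was 7.56% ± 2.25 (SD, n = 7). The highest RCD value was RCD 3 at 22.4% (exact 95% binomial interval 21.96 to 22.92%, counting error only), where the next was RCD 5 at 10.1%. Without RCD 3 the RCD mean was 6.77%. In whole liver, fewer cells of a type and less RNA per cell cannot be told apart in such a share. Read counts are not independent molecules here, since no molecular identifiers are named. Scaled to miRNA counts instead, AM132 8 lay inside its group: its 30-nt fragments summed to 323 CPM of miRNA counts, and the other AM132 libraries lay between 206 and 470. RCD 3 stood at 922 CPM on that scale, and the other 23 libraries lay between 178 and 636.

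**Figure D1:**
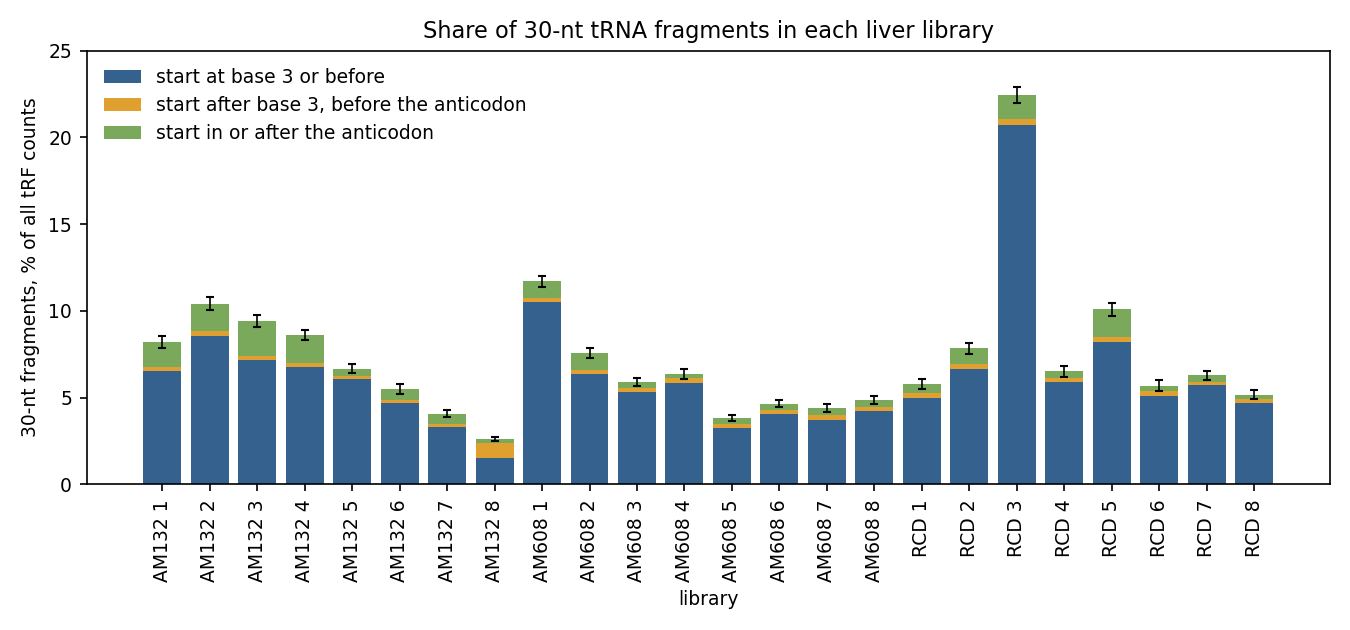
Stacked bars give the summed share of the 87 fragments in each of the 24 liver libraries, as a percentage of all tRF counts, split by where a fragment starts in its tRNA. Error bars are exact 95% binomial intervals of the summed share. RCD 3 stands at 22.4% and AM132 8 at 2.60%, and fragments from the 5′ end fill most of each bar.

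The 2 Lys-CTT fragments behaved unlike each other across libraries, although they differ at 1 base. The copy with A at base 29, tRF-30-PSQP4PW3FJI0, ran from 71.7 to 436 counts per 10000 tRF counts in AM132 (median 317), from 136 to 672 in AM608 (median 234) and from 198 to 1602 in RCD (median 257). It was highest in RCD 3 (4719 counts) and next in AM608 1 (2644 counts), and all 3 groups overlapped. The copy with G there, tRF-30-PSQP4PW3FJIK, ran from 46.4 to 197 per 10000 in AM132 (median 174), from 141 to 189 in AM608 (median 178) and from 180 to 300 in RCD (median 228). AM132 8 was its lowest library, and the other 7 AM132 libraries lay between 143 and 197, overlapping RCD only at its lower edge. The ratio of the first copy to the second was 8.89 in RCD 3, 3.84 in AM608 1 and between 0.75 and 2.30 in the other 22 libraries. In RCD 3, where the A copy was high, the G copy was at 180 per 10000, the lowest RCD value. A high A copy lowers every other share of its library. With the library sizes used in the tests below, the G copy stood at 23090 CPM in RCD 3 and lower, at 21018 CPM, in RCD 6.

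**Figure D2:**
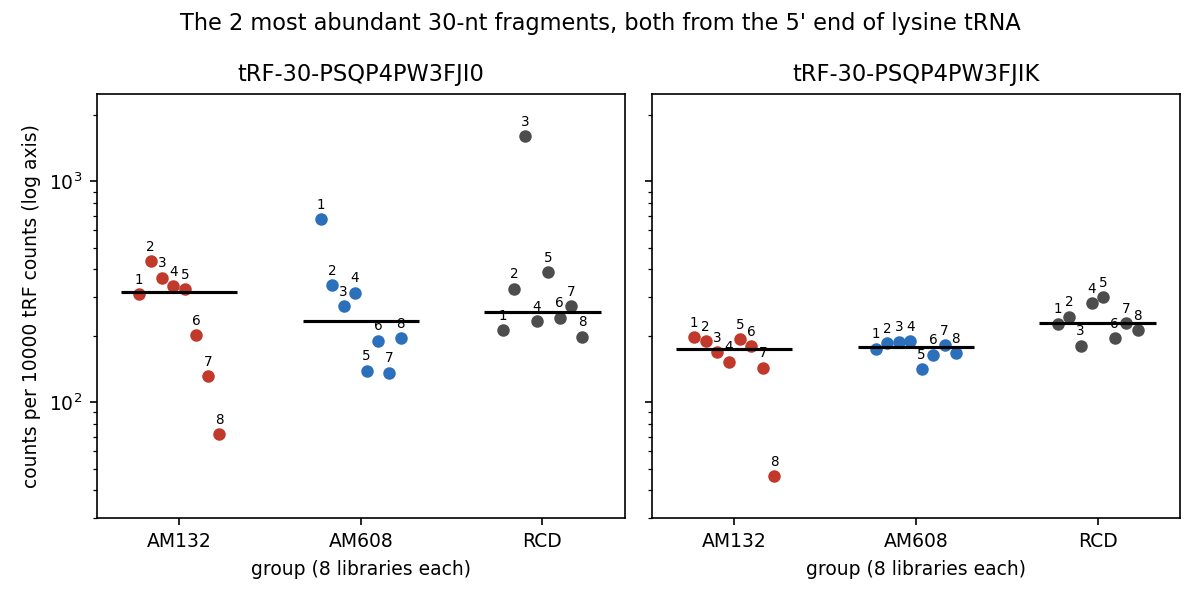
Points are single libraries, numbered as in the labels, for the 2 Lys-CTT fragments, as counts per 10000 tRF counts on a log axis, and lines are group medians. The copy on the left reaches 1602 in RCD 3, whereas the copy on the right stays between 141 and 300 apart from AM132 8 at 46.4.

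Of the 87 fragments, 15 had enough counts in enough libraries to be tested with edgeR's quasi-likelihood test, among 295 tRFs over which p-values were adjusted. In AM132 against RCD 1 of the 15 was called, and in the remaining comparisons 0 were. A fragment passes the count filter mostly through being abundant, so the 15 do not stand for all 87. Of all tested tRFs, 5.08% were called between AM132 and AM608 (4.07% higher, 1.02% lower in AM132). Between AM608 and RCD 4.41% were called (1.69% higher, 2.71% lower in AM608), and between AM132 and RCD 15.3% (6.1% higher, 9.15% lower in AM132), so 1 call of 15 is no more than the background there. The 3 comparisons share groups, so they are not independent of each other. No tested fragment had groups that did not overlap in any comparison, where the rates over all tested tRFs were 1.02%, 0.339% and 0.678%.

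tRF-30-PSQP4PW3FJIK, the G copy of the Lys-CTT 5′ fragment, was lower in AM132 than in RCD, with a log2 fold change of -0.68 (SE 0.17, adjusted p = 0.00783). This call held in each of 24 fits that left out 1 library, with log2 fold changes from -0.74 to -0.58. It was lost when each library's total tRF count was taken as its size (-0.56, adjusted p = 0.0679), and was made again on that scale without AM132 8 (-0.42, adjusted p = 0.028). With the sum of miRNA and tRF counts as library size the log2 fold change was only -0.33 (adjusted p = 0.066), and the median over all tested tRFs moved to 0.45 on that scale. The call was also lost with no filter on low counts (-0.56, adjusted p = 0.168) and with a total of 20 counts as the filter (-0.58, adjusted p = 0.0682). Between AM608 and RCD the same fragment had a log2 fold change of -0.54 (SE 0.17, adjusted p = 0.0662), and between AM132 and AM608 one of -0.15 (SE 0.17, adjusted p = 0.658). The AM608 against RCD value passed the threshold in 8 of 24 fits with 1 library left out, those without AM132 1, 3, 4, 7 or 8 or RCD 3, 6 or 7, where adjusted p reached 0.022 at its lowest (AM132 8 left out).

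The A copy, tRF-30-PSQP4PW3FJI0, was not called in any comparison. Its log2 fold change was -0.82 in AM132 against RCD (SE 0.44, adjusted p = 0.197) and -0.74 in AM608 against RCD (SE 0.44, adjusted p = 0.302). Both rested on RCD 3, without which they were -0.07 (adjusted p = 0.901) and 0.02 (adjusted p = 0.965). In AM132 against AM608 it was -0.08 (SE 0.44, adjusted p = 0.926), and 0.25 without AM608 1. Over the 3 tested lysine fragments, Lys-TTT included, the median log2 fold change was -0.08 in AM132 against AM608, -0.54 in AM608 against RCD and -0.68 in AM132 against RCD, where the medians over all tested tRFs were -0.01, -0.03 and 0.03. Without RCD 3 the lysine medians against RCD were -0.13 for AM608 and -0.08 for AM132.

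Of the 15 tested fragments, those of aspartate tRNA had the largest log2 fold changes between AM132 and AM608, none of which was called with adjusted p at 0.05. All 7 tested Asp fragments had positive log2 fold changes there, from 0.54 to 1.65 with a median of 1.32, and 6 of the 7 reached an unadjusted p of 0.05 (over all 295 tested tRFs, 60 did). Without AM132 8, when 8 Asp fragments could be tested, all 8 were positive with a median of 1.42, and 0 were called. The major 5′ fragment ran from 7.07 to 127 counts per 10000 tRF counts in AM132 (median 39.5), from 14.4 to 58.2 in AM608 (median 16.9) and from 12.8 to 80.1 in RCD (median 21.3). Its log2 fold change in AM132 against AM608 was 0.99 (SE 0.48, adjusted p = 0.235), and that of the minor copy (G20T) was 1.32 (SE 0.58, adjusted p = 0.207). On the 3′ side, tRF-30-M2OSRNLNKSEK ran from 3.97 to 54.8 per 10000 in AM132, from 3.68 to 24.2 in AM608 (median 6.55) and from 4.86 to 50.8 in RCD (median 6.96). Its log2 fold change was 1.29 (SE 0.52, adjusted p = 0.153), beside 1.35 (SE 0.54, adjusted p = 0.153) for tRF-30-QKF1R3WE8RO8 and 1.37 (SE 0.62, adjusted p = 0.213) for tRF-30-L85DMKYUYRLH. These ladder fragments overlap by all but a few bases, so they are not separate evidence.

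The smallest adjusted p among the Asp fragments belonged to the ladder fragment from base 42 (194 counts in all), singled out after its values were seen, with 1 to 20 counts per library in AM132 (median 12), 1 to 11 in AM608 (median 3.5) and 2 to 18 in RCD (median 5). Its log2 fold change in AM132 against AM608 was 1.65 (SE 0.54, adjusted p = 0.0705). It passed the threshold in 3 of 24 fits with 1 library left out, those without AM132 5 (adjusted p = 0.0321), RCD 5 (0.0424) or RCD 7 (0.0445), and with DESeq2 (0.0235). The ladder fragment that starts earliest, tRF-30-8HM2OSRNLNKS at base 35, had the smallest difference of the 7 in this comparison (0.54, SE 0.44, adjusted p = 0.498). In AM608 against RCD the median of the 7 was -0.74, and in AM132 against RCD it was 0.57, with 0 called in either, and without RCD 3 (8 tested) the AM608 against RCD median was -0.30.

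The libraries of 1 group were not alike in Asp fragments. The 13 that start in or after the anticodon summed to 1.13, 1.30, 1.65 and 1.40% of tRF counts in AM132 1 to 4, and to 0.28, 0.50, 0.44 and 0.17% in AM132 5 to 8. In AM608 the same sum was 0.74 and 0.75% in libraries 1 and 2 and 0.16 to 0.27% in the other 6. In RCD it was 0.62% in library 2, 1.07% in library 3, 1.27% in library 5 and 0.18 to 0.35% in the other 5. The 2 Asp fragments that start at base 1 were high in the same libraries: 0.59 to 1.47% in AM132 1 to 4 against 0.08 to 0.31% in AM132 5 to 8, and 0.97% in RCD 3. This split of the AM132 libraries was not particular to Asp. Both His fragments together summed to 0.06 to 0.16% in AM132 1 to 4 and to 0.01 to 0.05% in AM132 5 to 8. The sums of Lys, Gln, Glu and Gly fragments overlapped between AM132 1 to 4 and AM132 5 to 8. The labels give no batch for these libraries.

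**Figure D3:**
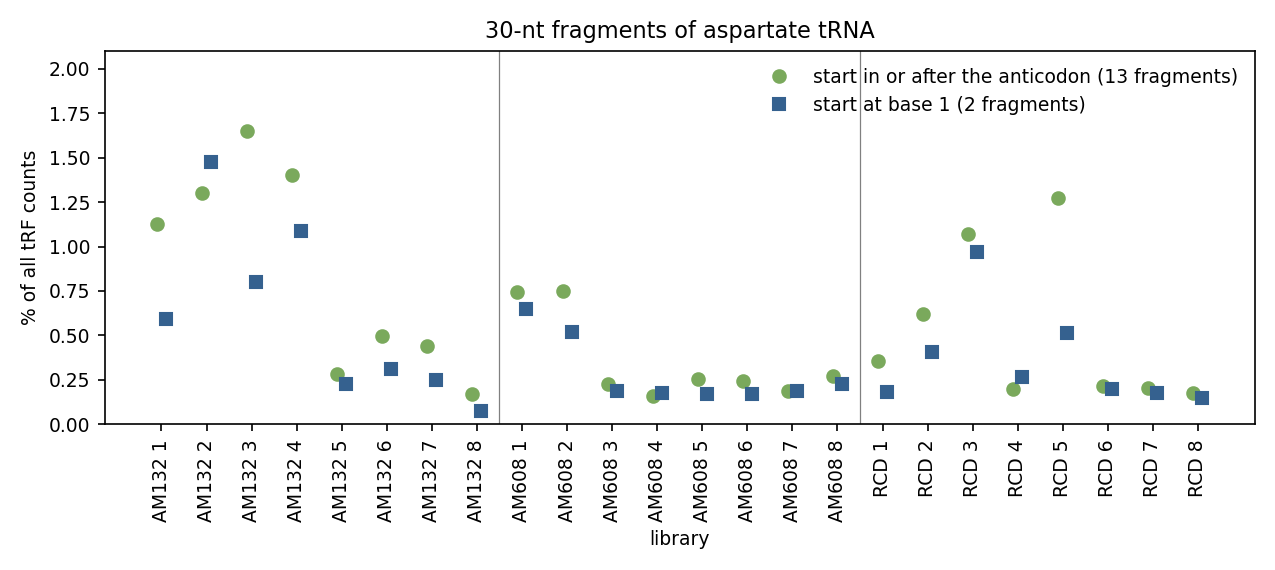
Points give 30-nt fragments of tRNA-Asp in each library as a percentage of all tRF counts, circles for the 13 fragments that start in or after the anticodon and squares for the 2 that start at base 1. AM132 1 to 4 lie above AM132 5 to 8 for both, and RCD 3 and RCD 5 lie above the other RCD libraries.

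As for aspartate tRNA, fragments of the other tRNAs showed no called difference. The Gln 5′ fragment tRF-30-R9J89O9NF5W8 had group medians of 14.6 (AM132), 7.61 (AM608) and 8.34 (RCD) counts per 10000 tRF counts, with its highest value, 32.6, in RCD 3. The Gly-GCC fragment tRF-30-9LON4VN1EH6K, which spans the anticodon, ran from 3.52 to 11.1 per 10000, with medians of 6.18, 6.18 and 6.47. The Glu-TTC 3′ side fragment tRF-30-1HPSR9O9337K had medians of 4.09, 4.2 and 3.71. The log2 fold changes of 14 of the 15 are shown in the plot by comparison.

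**Figure D4:**
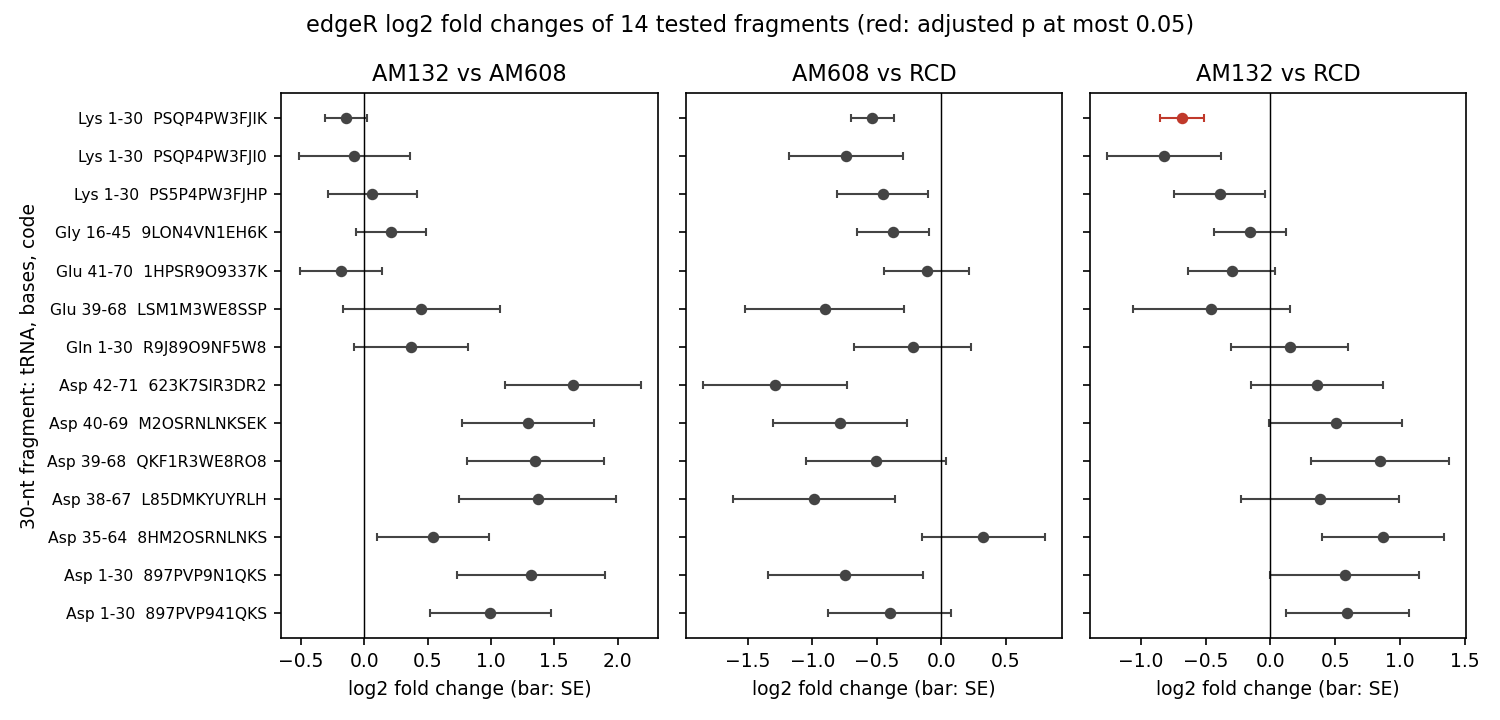
Points are edgeR log2 fold changes of 14 tested fragments in each comparison, first group over second, and bars are 1 SE. All 7 Asp fragments lie above 0 in AM132 against AM608, and the Lys fragment tRF-30-PSQP4PW3FJIK in AM132 against RCD is the only one with an adjusted p of at most 0.05.

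Across all 15, the median log2 fold change was 0.45 in AM132 against AM608 (11 positive, 6 with an unadjusted p of 0.05 or less), -0.50 in AM608 against RCD (1 positive, 2 with such a p) and 0.15 in AM132 against RCD (8 positive, 1 with such a p). Over all 295 tested tRFs, 144, 140 and 154 were positive in these 3 comparisons, and 60, 74 and 88 had such a p. Without RCD 3, when 16 fragments could be tested, the AM608 against RCD median was -0.10 with 5 positive and that of AM132 against RCD was 0.59 with 10 positive. Without AM132 8, with 17 tested, the AM132 against RCD median was 0.48 with 10 positive. DESeq2 called 1 fragment between AM132 and AM608 and 1 between AM608 and RCD, and limma's voom called 0 in either. The share of all tested tRFs called in those fits is not given here. Those counts therefore describe the methods and are not read as results about the fragments. Shorter fragments with the same first 15 bases as one of the 87 were tested in 43 cases. Of all 295 tested tRFs, 15 were called in AM132 against AM608, 13 in AM608 against RCD and 45 in AM132 against RCD. Compared with AM608, 5 of the 43 were called higher and 1 lower in AM132 (median -0.03, 21 positive). Compared with RCD, 1 was called higher and 1 lower in AM608 (median -0.17), and 4 higher and 4 lower in AM132 (median 0.03). A further 66 tested shorter fragments end in CCA, as mature 3′ tRFs do. Against AM608, 1 of them was called lower in AM132 (median 0.04). Against RCD, 2 were called higher and 1 lower in AM608 (median 0.0016), and 5 higher and 1 lower in AM132 (median 0.07). These calls among shorter fragments are given as description.

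AM132 8 differed from all other libraries in which 30-nt fragments it held. Fragments that start between base 3 and the anticodon were 32.9% of its 30-nt counts, against 1.60 to 6.27% in the other 23 libraries. tRF-30-U47P299DWUH6, bases 13 to 42 of tRNA-Gln-CTG, had 303 counts there of 323 in all libraries, or 37.6 per 10000 tRF counts against at most 1.33 elsewhere. The matching Gln-TTG fragment tRF-30-U47P299DZUH6, which differs by C34T in the anticodon, had 38 of its 43 counts there. tRF-30-WP9N1EWJQ72S, bases 11 to 40 of tRNA-Glu-CTC, had 65 of 82. Without AM132 8, tRF-30-U47P299DZUH6 held 5 counts and tRF-30-WP9N1EWJQ72S 17, so both reached the limit of 20 only through it. The same holds for all 7 fragments that fall below 20 counts without this library, and each of those starts between base 3 and the anticodon. Their counts there are thus description only. They are part of the 32.9% above, so its contrast with the other libraries is description as well. For 7 of the 87 fragments more than 50% of the counts came from this library, and 80 of the 87 still reach 20 counts without it. These fragments start in the D arm and run through the anticodon, so each holds the whole anticodon. The 2 Lys-CTT fragments were 45.4% of the 30-nt counts in AM132 8 and 56.7 to 79.7% in the other libraries.

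**Figure D5:**
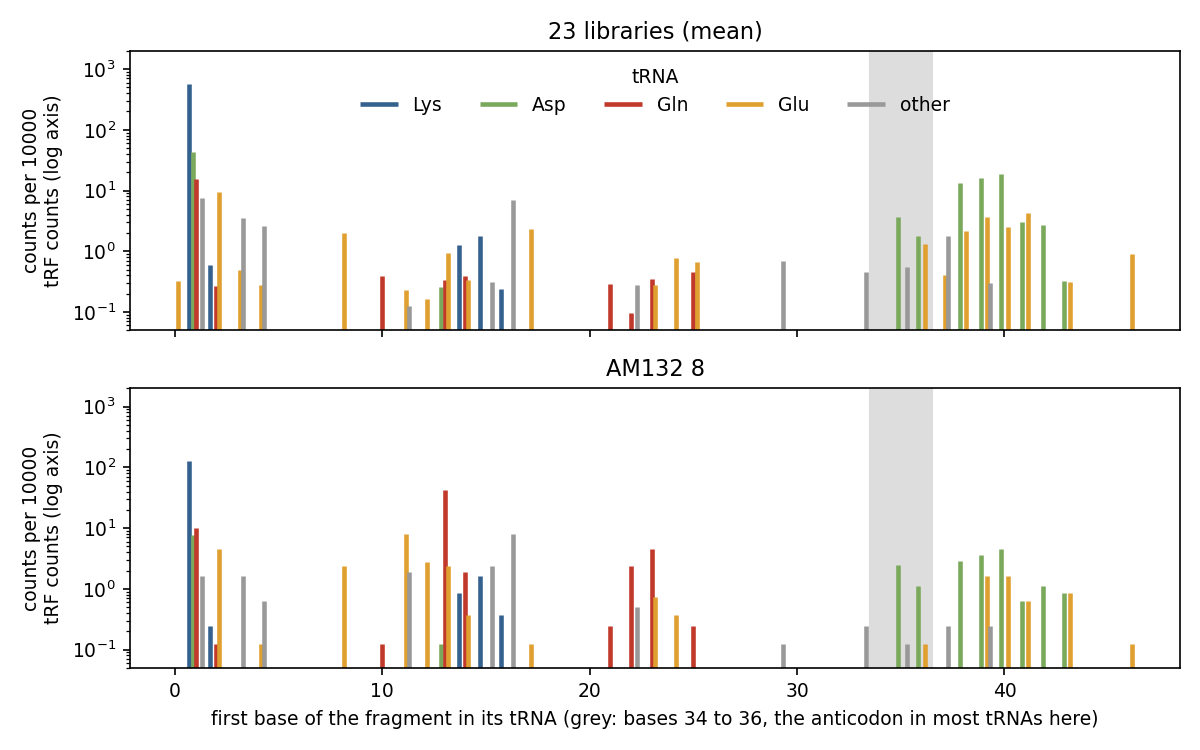
Lines give counts per 10000 tRF counts on a log axis, summed over fragments of a tRNA that start at the same base, as the mean of 23 libraries above and for AM132 8 below. In the 23 libraries most counts start at base 1 or at bases 38 to 40, whereas AM132 8 has added Gln and Glu fragments starting at bases 11 to 14. Some of these reached the count limit only through AM132 8, so this contrast is description only.

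In RCD 3 the A copy of the Lys-CTT 5′ fragment alone held 4719 of 6609 30-nt counts. Its 5′ fragments were 92.2% of its 30-nt counts, against 76.01 to 91.98% in the other libraries apart from AM132 8 (58.3%). Without the 2 Lys-CTT fragments, the other 85 summed to 4.61% of tRF counts in RCD 3, still the highest of the 24, ahead of AM132 2 (4.16%) and AM132 3 (4.08%), with 1.01% in AM608 5 the lowest.

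Among 279 tested tRFs shorter than 30 nt, the one whose share followed the summed 30-nt share most closely over 23 libraries (AM132 8 left out) was tRF-29-PSQP4PW3FJFL, the 29-nt form of the Lys-CTT A copy, with a Spearman rho of 0.92 and a Pearson r of 0.97 (0.90 without RCD 3 and AM608 1). It was followed by tRF-27-Q1Q89P9L842 from the 5′ end of tRNA-Gly-CCC (rho 0.83, r 0.93 and 0.80 without those 2) and by tRF-27-FSXMSL73VL3, which matched no assembled tRNA (rho 0.80, r 0.38 and 0.78 without those 2). These are the highest of 279, picked for their likeness, and shares of 1 library have a common denominator, so they are given as description.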

How the data were processed

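The values were whole read counts per tRF and per mature miRNA in 24 liver libraries, as deposited by the authors. The labels' protocols name 300 ng total RNA input, a NEBNext small RNA kit and the NextSeq 500. The submitters' processing notes name only FastQC. Aligner, trimming, build and the rule assigning reads to tRFs: not given in the sources used here, so reads of near-identical tRNA copies may be split among them. Titles gave each sample's group, and column names each sample.

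Each tRF name was turned into its sequence, and all 8456 encoded back. Parent tRNAs (27 copies of 20 isoacceptors) were assembled from deposited tRFs overlapping by at least 12 nt and named by anticodon, and 2 valine fragments that fell within none were assigned by likeness. Gene numbers are RefSeq's.

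Tests used edgeR 4.0.16 under R 4.3.3 (quasi-likelihood, robust, TMM, filterByExpr) over all 24 libraries with group as the only term, and Benjamini-Hochberg adjustment covered 295 tRFs, with a threshold of 0.05. DESeq2 1.42.0, limma 3.58.1 and other library sizes, filters and sets of libraries were alternatives. The fit was tested on simulated data. Within groups, every one of 84 library pairs differed by more than counting noise (chi-square over degrees of freedom at least 2.10).

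The fragments, lists and tests were chosen with earlier results of these data known. Named are the 12 fragments with the highest mean share over 23 libraries, called ones, the 8 with the most counts in AM132 8, those at the limits, the most abundant shorter fragment with the same first 15 bases, and the 3 shorter tRFs most like the summed share. One of these fragments is not reported here. Other named fragments were picked after their values were seen: sequence copies, the Asp fragments from bases 35 and 42, the Gln-TTG fragment spanning the anticodon and those of histidine, valine and initiator methionine. A count of 0 allows a share of up to 0.00372 to 0.0146% of a library's tRF counts (3 counts).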

Additional observations from a re-analysis of the deposited data

Results flagged for a closer look

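Within each group of 8 libraries, a value was marked where it lay far from its nearest neighbour relative to the range of the group. Over 42 groups of values 11 were marked. No chance rate applies to this count. Some fragments were named for high counts in AM132 8, and the summed share includes the single fragments. In RCD 3 lay 5 of the marks, in AM132 8 3, in AM608 1 2 and in RCD 1 1.

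RCD 3 was high in the summed share (22.4% of tRF counts, next 10.1%) and, in counts per 10000 tRF counts, in tRF-30-PSQP4PW3FJI0 (1602, next 389), tRF-30-PS5P4PW3FJHP (72.3, next 34), tRF-30-R9J89O9NF5W8 (32.6, next 16.4) and the minor Asp 5′ copy (17, next 6.83). The fragments among these start at base 1. AM608 1 was high in 2 Lys fragments, tRF-30-PSQP4PW3FJI0 (672, next 339) and tRF-30-PS5P4PW3FJHP (72.7, next 28.1). AM132 8 was low in tRF-30-PSQP4PW3FJIK (46.4, next 143) and high in tRF-30-U47P299DWUH6 (37.6, next 0.39) and tRF-30-WP9N1EWJQ72S (8.07, next 0.50), both of which span the anticodon. Both of these anticodon-spanning fragments were named for their counts in AM132 8, so their marks there follow from that choice. In RCD 1, tRF-30-U47P299DWUH6 was at 1.33 per 10000 (next 0.34), which is 3 counts.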

How the results depend on the processing

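The count of called 30-nt fragments between AM132 and RCD (1) became 0 with total tRF counts as library size or a total of 20 counts as filter, and 2 with no filter. Those 2 were tRF-30-U47P299DZUH6 and tRF-30-WP9N1EWJQ72S, with most of their counts in AM132 8, and not the Lys-CTT fragment. With miRNA plus tRF counts it was again 1, but the call was tRF-30-8HM2OSRNLNKS (log2 fold change 1.22, edgeR adjusted p = 0.0421) and not the Lys-CTT fragment. Between AM132 and AM608 it (0) became 2 with no filter (tRF-30-WP9N1EWJQ72S and the Asp fragment from base 42), and 1 with DESeq2, the replicate block, or AM132 8 and RCD 3 left out together. Between AM608 and RCD it (0) became 1 with RLE factors, DESeq2, 2 groups only, AM132 8 and RCD 3 out, or total tRF counts without AM132 8. The settings that leave out both libraries, or AM132 8 with total tRF counts, were chosen after seeing the data. All these counts are given without the share of all tRFs called in the same fit. They therefore describe the settings and are not read as results about the fragments. Leaving out 1 library gave 0 to 1, 0 to 1 and 1 to 1 calls for AM132 with AM608, AM608 with RCD and AM132 with RCD. Same-numbered libraries correlated above 0.1 in 4, 5 and 4 of 8 pairs. Differently numbered libraries were not compared, so whether replicate numbers pair the libraries cannot be told. With the replicate block the Asp fragment from base 42 was called between AM132 and AM608 (log2 fold change 1.76, edgeR adjusted p = 0.044).

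As a percentage of miRNA counts the mean summed share was 0.0343 (AM132), 0.0308 (AM608) and 0.0358 (RCD). With 1 library left out, the mean share of tRF counts was 6.44 to 7.56% for AM132, 5.37 to 6.495% for AM608 and 6.77 to 9.24% for RCD. No fragment of 33 nt or more was in the table analysed, so that length limit gave no value.

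Signs changed in 66 of 1567 alternative fold changes of the 15 tested fragments, 0 of them called in either fit. With AM132 8 and RCD 3 out, tRF-30-PSQP4PW3FJI0 became 0.043 (AM132 with AM608), 0.0012 (AM608 with RCD) and 0.045 (AM132 with RCD), and the major Asp 5′ fragment 0.012 (AM608 with RCD). With total tRF counts and no AM132 8, the 2 Lys-CTT fragments became 0.092 and 0.0073 between AM132 and AM608. With miRNA plus tRF counts as library size the major Asp 5′ fragment became 0.018 between AM608 and RCD. With 1 library left out, tRF-30-PSQP4PW3FJI0 ran from -0.28 to 0.25 between AM132 and AM608 and from -1.08 to 0.025 between AM608 and RCD, and the major Asp 5′ fragment from -0.71 to 0.023 between AM608 and RCD. The causes were not tested. Depth limits the rest, since only 15 of 87 fragments had enough counts for a test.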

Other observations

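Minor 30-nt fragments came from the 5′ ends of further tRNAs, each with few counts. Valine tRNA gave 3 copies of a 5′ fragment, led by tRF-30-79MP9P9MH57S with 142 counts, of which only the least abundant (28 counts) lay within an assembled Val-CAC tRNA, and initiator methionine tRNA gave tRF-30-FP18LPMBQ4NK with 101. The histidine fragments tRF-30-MUWLV47PU9XW and tRF-30-7EMQ18Y3E7QN, which start 2 and 3 bases into the tRNA, had 195 and 193 counts.

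Counts by length were uneven over all tRFs. Lengths of 17, 25 and 28 nt held 1098, 103 and 997 counts, against 114298 at 16 nt, 252590 at 18 nt and 120245 at 26 nt. In AM132 8, 23 and 24 nt held 11.0% and 6.31% of tRF counts (other libraries 3.15 to 6.27% and 1.90 to 2.64%), and 26 nt held 4.47% (other libraries 7.20 to 24.5%).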
